A study of Homo sapiens with 18 samples.

Results

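The EGF receptor family and its ligands were followed in bulk RNA sequencing of a breast epithelial progression series. The 10 genes were taken by symbol from the 35933 genes with values: the receptors EGFR, ERBB2 and ERBB3, and the ligand genes AREG, EREG, EPGN, BTC, HBEGF, TGFA and NRG1. There were 18 libraries, with 3 replicates (a, b and c) in each of 6 groups. The lines were MCF10A (spontaneously immortalized, non-tumorigenic), MCF10AT1 (MCF10A given a mutated HRas) and MCF10CA1h (obtained from MCF10AT1 through serial xenografts in mice). Each line was represented by a negative control CRISPR line and by a line labelled METTL3 CRISPR knockdown, METTL3 being the methyltransferase that writes m6A on RNA. By the methods, cells received an all-in-one Cas9, guide RNA and mCherry construct carrying a control guide or a guide to METTL3 exon 1, were sorted for mCherry in 2 rounds, and were then cloned from single cells. Each group is thus 1 clonal line, and the p-values measure only the spread among 3 replicates of that clone, which may be technical. All groups were grown with horse serum, insulin, hydrocortisone, cholera toxin and added EGF.

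EGFR, ERBB2 and ERBB3 are receptors of one tyrosine kinase family that signal as pairs. EGFR binds a set of small ligands made as membrane-bound precursors and released by proteases of the ADAM family, ERBB2 has no known ligand of its own and serves as a partner, and ERBB3 has a weak kinase and binds neuregulins. Active pairs feed the RAS to ERK and the PI3K pathways, and MCF10A cells are grown with added EGF. These cells are also known to make EGFR ligands of their own, amphiregulin (AREG) in particular.

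The values are counts normalized by the authors across the 18 libraries, with sums of 21347352 to 31681834 per library. METTL3, the targeted gene, was checked first. Its normalized counts were 752, 686 and 459 in the MCF10A control libraries and 939, 981 and 509.8 in the labelled knockdown libraries. They were 968, 1016 and 805 and then 816, 752 and 902 in MCF10AT1, and 1022, 1102 and 1280.4 and then 825, 745 and 843 in MCF10CA1h. METTL3 RNA fell in MCF10CA1h (log2 -0.49 ± 0.12 SE, adjusted p = 0.0234), a call lost without control replicate c (-0.40, adjusted p = 0.0906), without knockdown replicate b (-0.44, adjusted p = 0.0854), without an intensity trend (adjusted p = 0.0742) and in a joint fit of the 18 libraries (adjusted p = 0.501). It was not shown to be lower in MCF10A (log2 0.33 ± 0.30 SE, adjusted p = 0.618) or MCF10AT1 (log2 -0.17 ± 0.26 SE, adjusted p = 0.707), so the groups are named by their label throughout. Exact two-sided permutation tests on the log2 values gave p = 0.5, 0.3 and 0.1 for the 3 lines in that order, where 0.1 is the smallest p that 3 against 3 libraries allow. These values measure RNA only, and loss of the protein was not tested here. The paper reports lower levels of the targeted protein by Western blotting in each line, with a lesser effect on its RNA by RT-PCR. It also reports a significant drop in RNA methylation in the derived lines.

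Libraries also differed in how well long transcripts were represented. The median log2 deviation of genes with long transcripts (at least 4823 bases) minus that of genes with short ones (at most 1682 bases) was 0.187, 0.894 and 0.934 in the MCF10A control libraries, -0.516, -1.165 and 0.544 in the MCF10AT1 control libraries and -0.126, 0.169 and -0.22 in the MCF10CA1h control libraries. In the labelled knockdown libraries it was 0.574, 0.854 and 0.746, then -1.151, -1.083 and -0.393, then 0.001, -0.159 and -0.253. Replicate c of both MCF10AT1 groups lay above the other 2 of its group. The canonical transcripts of EGFR (9.905 kb) and NRG1 (11.983 kb) are long and that of AREG (1.234 kb) is short. Values corrected for length are therefore given where they change a call, and for some differences that they move by over 1.5 times.

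Of 12 epithelial markers, 3 had a mean under 10 in the MCF10AT1 labelled knockdown group and 3 in each MCF10CA1h group. In the MCF10AT1 labelled knockdown libraries the list summed to 23976 to 48594 against 70272 to 104796 in the controls. By limma 9 of the 12 fell, where 13.0% of all genes tested passed, 5.96% as lower. Several defining members were low there, with ESRP1 at 0 to 25.4, RAB25 at 1.76 to 4.50, CLDN7 at 9.95 to 14.9 and CDH1 at 11.6 to 79.2, while KRT8 (9545 to 19882) and KRT18 (13608 to 28075) stayed abundant. The 13 mesenchymal markers summed to 118485 to 207366 there against 3807 to 5136 in the controls. Of them 5 rose, VIM, FN1, CDH2, THY1 and COL3A1, where 1134 of all 16050 genes rose. Basal markers also fell there (8 of 10, against 5.96% of all genes), with KRT5 at 824 to 5540.2 against 36863 to 48735. The ranges of the basal sum overlapped, at 56792 to 174190 in these libraries and 140184 to 196734 in the controls. RAB25 and GRHL2 were near 0 in both MCF10CA1h groups as well, at no more than 10.2. In MCF10CA1h, 8 of the 10 basal markers rose with the knockdown label, against 7.91% of all genes. The basal sum there was 572894 to 682751 against 371646 to 376282 in the controls. The mesenchymal sum was 41433 to 52331 against 28214 to 33300 in the controls. Of the 13 mesenchymal markers 2 were called higher (DCN and FN1) and 1 lower (COL3A1), where 12.8% of all genes passed in either direction. Of other cell types, PTPRC, CD3E, CDH5 and VWF were near 0 in the MCF10AT1 libraries (at most 9.85), but not every listed marker was. The 5 endothelial markers summed to 233 to 867 in MCF10AT1 controls and 382 to 644 in the labelled libraries, with 4 at a mean under 10. The 3 blood markers with values summed to 146 to 259 and 192 to 827, with 2 at a mean under 10. HRAS stood at 8778 to 10402, 12438 to 20146 and 9959.5 to 12633 in the MCF10A, MCF10AT1 and MCF10CA1h controls. In bulk RNA, fewer cells of a type cannot be told apart from less RNA per cell.

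Levels of different genes were compared per kilobase of the canonical transcript, as normalized counts per kb. Amphiregulin was the main EGFR ligand in every group on this scale. AREG held a mean of 66.3 ± 9.93% (SD, n = 3) of the summed per-kb level of the 6 EGFR ligand genes in MCF10A controls, where HBEGF held 22 ± 4.46% and TGFA 9.44 ± 5.72%. In the other 5 groups the AREG share was between 81.1% and 88.2%. The ligand sum was 18243 ± 1689.7 normalized counts per kb in MCF10A controls, 8425 ± 803 in MCF10AT1 controls and 11088 ± 1558 in MCF10CA1h controls (SD, n = 3). Ligand shares and sums were not corrected for the representation of long transcripts, which differed between these groups, and the AREG transcript is short (1.234 kb). Among receptors, EGFR held 69.4 ± 8.17% of the summed per-kb level in MCF10A controls and 55.2 ± 9.66% in MCF10CA1h controls, whereas in MCF10AT1 controls ERBB2 held 53.6 ± 11.3% and EGFR 33.4 ± 14.5% (SD, n = 3, not corrected for the representation of long transcripts). The order was not the same in every library: in MCF10AT1 control c EGFR was at 762 normalized counts per kb against 625 for ERBB2, and in MCF10CA1h control c at 319 against 353. The receptor sum was 1225 ± 305 normalized counts per kb in MCF10AT1 controls and 364 ± 42.3 in the MCF10AT1 labelled knockdown libraries, where ERBB2 made up 81.2 ± 7.30% of it. BTC (betacellulin) stayed at 7.21 to 40.4 normalized counts in all 18 libraries and was called in none of the 9 comparisons.

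**Figure D1:**
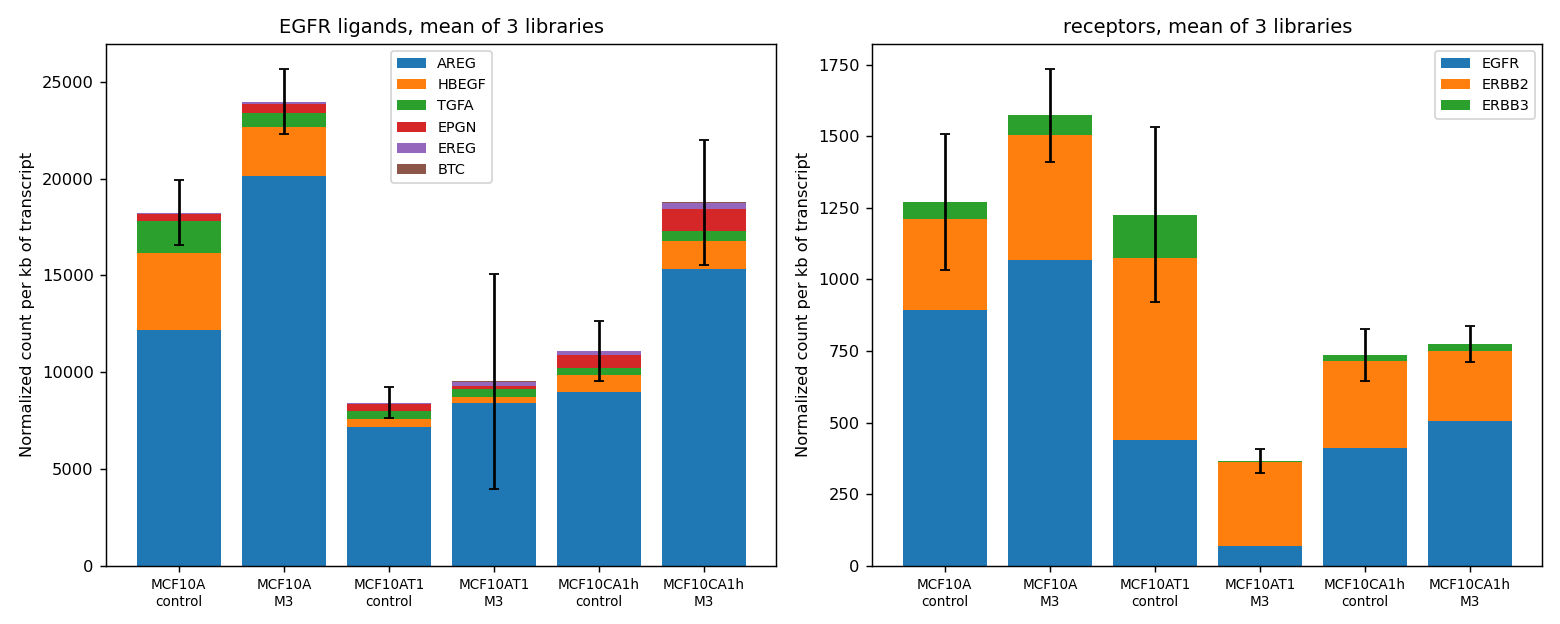
Mean level per kb of canonical transcript (vertical axes, normalized count per kb) of the 6 EGFR ligand genes (left) and the 3 receptor genes (right), stacked by gene for each of the 6 groups of 3 libraries; M3 stands for the METTL3 CRISPR label and black bars are the SD of the sum over 3 libraries. AREG fills most of every ligand column, and the receptor column of the MCF10AT1 M3 group, at 364, is the lowest.

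Of the other genes of the family, ERBB4 was listed at 0 to 11.0 in all libraries and EGF at 0 to 36.0, so transcripts for the fourth receptor and for EGF itself were at or near 0. NRG2 rose in MCF10AT1 controls against MCF10A controls (log2 1.42 ± 0.44, adjusted p = 0.0413) and NRG4 in MCF10CA1h controls against MCF10AT1 controls (log2 1.99 ± 0.58, adjusted p = 0.0373). Neither passed in a comparison of the knockdown label with controls. NRG3 was not analysed here.

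**Figure D2:**
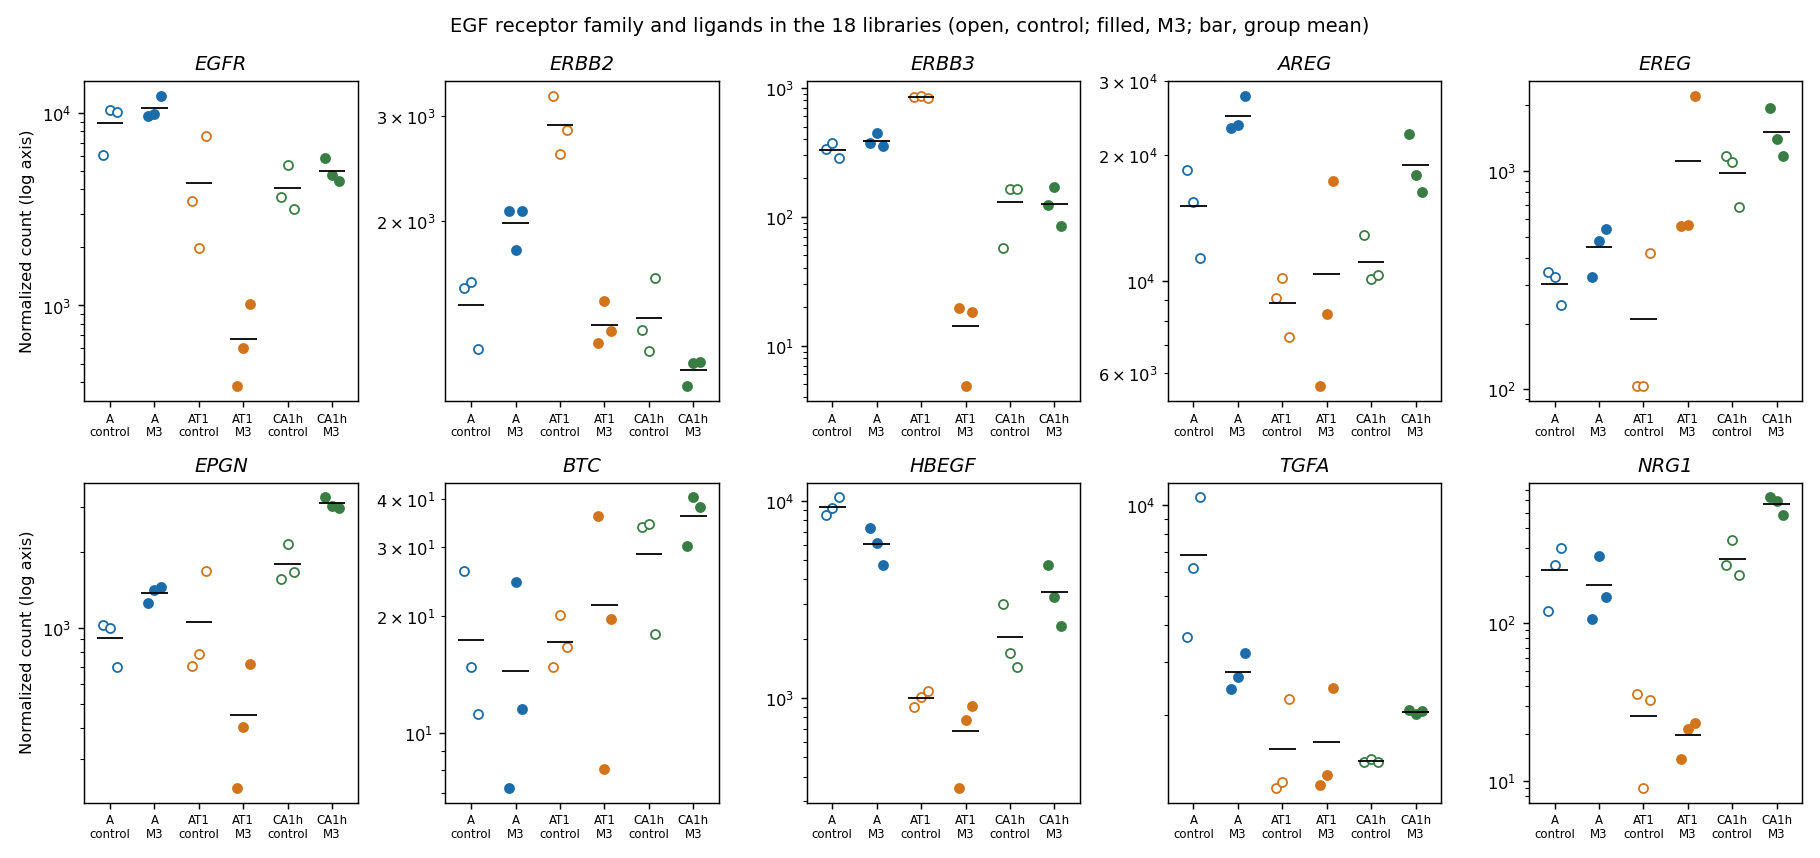
Normalized count of each of the 10 genes in all 18 libraries (vertical axes, log scale), by group along the horizontal axes; open points are control libraries, filled points are libraries with the METTL3 CRISPR label (M3), and bars are group means. The filled MCF10AT1 points lie below all other points for EGFR and for ERBB3, and the 3 filled MCF10CA1h points lie above their controls for AREG, EPGN, TGFA and NRG1.

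The first question was how the family differs between the 3 lines without the knockdown label. In the control libraries HBEGF and TGFA were several-fold lower in both derived lines than in MCF10A, NRG1 was low in MCF10AT1 alone, EREG was highest in MCF10CA1h, and ERBB2 and ERBB3 were highest in MCF10AT1. Between MCF10AT1 and MCF10A controls 6 of the 10 genes passed an adjusted p under 0.05 (limma, Benjamini-Hochberg over all genes tested), with ERBB2 and ERBB3 higher and AREG, HBEGF, TGFA and NRG1 lower, where 28.1% of all genes tested passed. Between MCF10CA1h and MCF10A controls 5 of 10 passed, EREG and EPGN higher and ERBB3, HBEGF and TGFA lower, against 37.8% of all genes. Between MCF10CA1h and MCF10AT1 controls 5 of 10 passed, EREG, HBEGF and NRG1 higher and ERBB2 and ERBB3 lower, against 21.8% of all genes. The 3 comparisons share control libraries, and a line cannot be told apart from the single clone that stands for it. All differences are on the scale of log2(normalized count + 1), which understates changes of low genes.

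**Figure D3:**
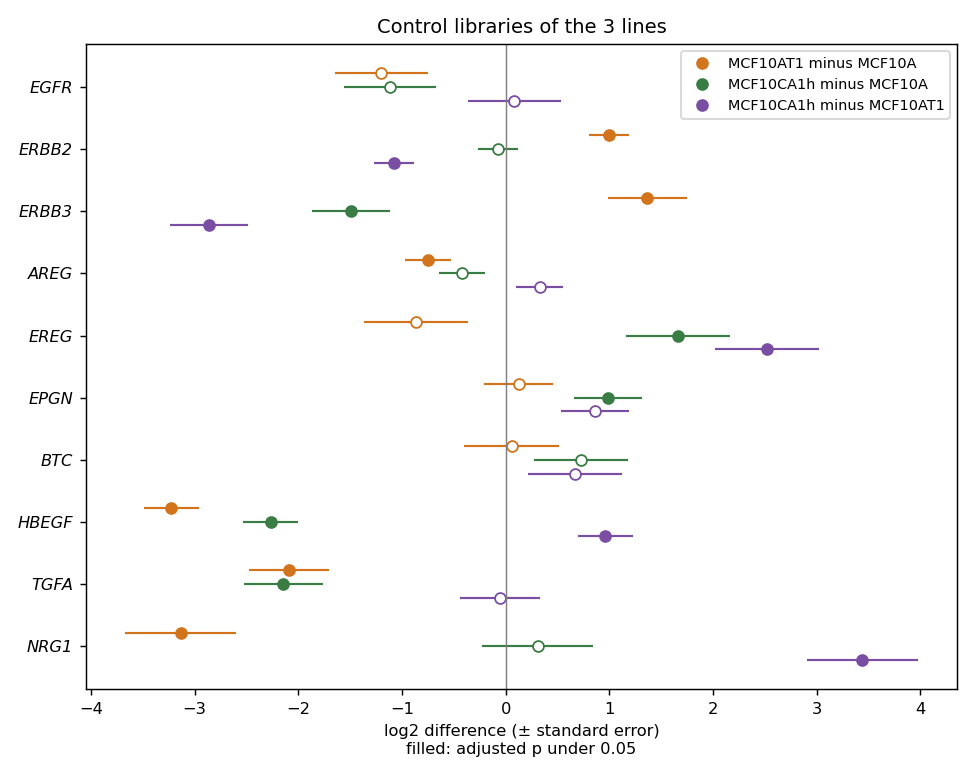
Log2 difference between the control libraries of pairs of lines (horizontal axis) for each of the 10 genes, with bars for 1 standard error; filled points passed an adjusted p under 0.05 by limma, 3 libraries per line. HBEGF and TGFA lie to the left in both comparisons with MCF10A, and NRG1 lies at -3.13 and 3.44 in the comparisons that involve MCF10AT1.

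The second question was what differs between the labelled knockdown line and the control line of each cell line. In MCF10A, limma called 0 of the 10 genes, against 2.65% of all genes tested, while 5 had an unadjusted p under 0.05. In MCF10AT1 it called 3 of 10, the 3 receptors, all lower, against 13.0% of all genes in either direction and 5.96% lower. In MCF10CA1h it called 4 of 10, the ligands AREG, TGFA, EPGN and NRG1, all higher, against 12.8% of all genes in either direction and 7.91% higher. Scaled to equal library sums, 1043 of all genes passed as higher and 1035 as lower in MCF10CA1h, where the deposited scaling gave 1196 and 733, and the same 4 ligands passed as higher. The median log2 difference of the 10 genes was 0.27, -0.44 and 0.58 in the 3 lines, where that of all genes tested was 0.00, 0.02 and -0.02. Same-letter libraries were also taken as a block in MCF10A and MCF10AT1, where pairing by letter is an assumption. With the block 1 of 10 passed in MCF10A (TGFA) against 7.60% of all genes, and 5 of 10 in MCF10AT1 (the 3 receptors, EREG and EPGN) against 24.5%.

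**Figure D4:**
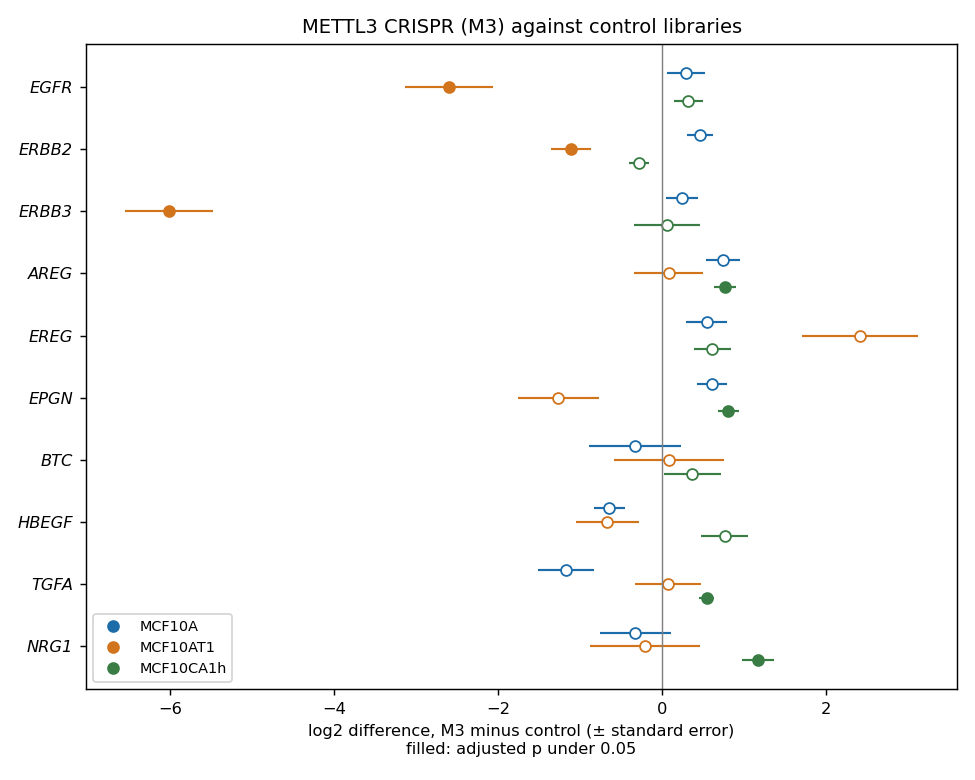
Log2 difference between libraries with the METTL3 CRISPR label (M3) and control libraries (horizontal axis) for each of the 10 genes in the 3 lines, with bars for 1 standard error; filled points passed an adjusted p under 0.05 by limma, 3 against 3 libraries. The receptors of MCF10AT1 lie at -2.60, -1.11 and -6.01, while the filled MCF10CA1h points lie between 0.55 and 1.17.

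EGFR (chr7:55019017-55211628, plus strand, hg38 coordinates of GENCODE v44) encodes the receptor of EGF and its relatives. EGFR stood at 6015, 10394 and 10108 normalized counts in the MCF10A control libraries, at 3489, 1985 and 7548 in the MCF10AT1 controls and at 3663, 5385 and 3159.6 in the MCF10CA1h controls. The MCF10A range overlaps that of MCF10AT1 through MCF10AT1 replicate c, and it lies above that of MCF10CA1h. The difference was -1.20 for MCF10AT1 against MCF10A (adjusted p = 0.0684) and -1.11 for MCF10CA1h against MCF10A (adjusted p = 0.0740), neither of which passed. Corrected for transcript length they were -0.60 (adjusted p = 0.0978) and -0.61 (adjusted p = 0.0772). The MCF10AT1 difference was -0.74 (adjusted p = 0.191) without MCF10AT1 control b. Without MCF10AT1 control replicate c it was -1.71 (adjusted p = 0.00324), and in a joint fit of the 18 libraries the pair had adjusted p = 0.0298 and 0.0352. Libraries with the knockdown label held EGFR at 9568, 9862 and 12282 in MCF10A, 381, 602 and 1024 in MCF10AT1 and 5807, 4728 and 4436 in MCF10CA1h. All 3 MCF10AT1 values are below every other library of the series. In that group EGFR fell by 2.60 on the log2 scale (0.53 SE, adjusted p = 0.0150), 6.05-fold lower. In MCF10A (log2 0.29 ± 0.23 SE, adjusted p = 0.563) and MCF10CA1h (log2 0.32 ± 0.18 SE, adjusted p = 0.279) it did not pass, although it passed in MCF10CA1h without control replicate b (0.54, adjusted p = 0.0315).

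The MCF10AT1 call for EGFR was lost without control replicate a (-2.65, adjusted p = 0.0588), without knockdown replicate a (-2.25, adjusted p = 0.0608) and without knockdown replicate b (-2.58, adjusted p = 0.0621). It held when replicate c of both groups was left out (-2.46, adjusted p = 0.00561). Within the MCF10AT1 controls EGFR was highest in replicate c, the library of the 3 with the best representation of long transcripts, and lowest in replicate b, the one with the poorest. Corrected for transcript length, the MCF10AT1 difference was -2.33 ± 0.35 (SE, adjusted p = 0.00365). The shift from epithelial to mesenchymal markers in these libraries moves with the EGFR value, and its part in the result was not tested.

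**Figure D5:**
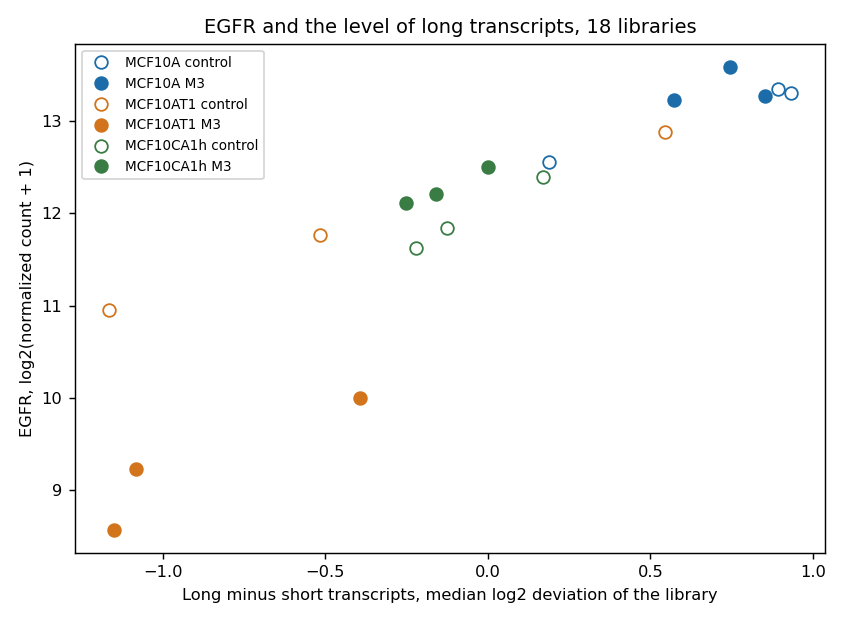
EGFR as log2(normalized count + 1) (vertical axis) against the median log2 deviation of long minus short transcripts of the same library (horizontal axis) for all 18 libraries; open points are controls and filled points carry the METTL3 CRISPR label (M3). The 3 filled MCF10AT1 points are the lowest of the plot, and MCF10AT1 control b, at a similar place on the horizontal axis (-1.165), lies at 10.96.

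ERBB2 (chr17:39687914-39730426, plus strand) encodes the partner receptor also known as HER2. Control libraries held 1545, 1584 and 1221 normalized counts of ERBB2 in MCF10A, 3247, 2592 and 2846 in MCF10AT1 and 1313, 1212 and 1608 in MCF10CA1h. The MCF10AT1 controls lie above all other groups. ERBB2 was 2.0-fold higher in MCF10AT1 than in MCF10A controls (log2 1.00 ± 0.19 SE, adjusted p = 0.00752) and 2.11-fold lower in MCF10CA1h than in MCF10AT1 controls (log2 -1.07 ± 0.19 SE, adjusted p = 0.00481), and both calls held with each control library left out. With the knockdown label its values were 2083, 1793 and 2080.4 in MCF10A, 1249, 1468 and 1308 in MCF10AT1 and 1058, 1159 and 1161 in MCF10CA1h. The groups do not overlap in any of the 3 lines: the labelled libraries are higher in MCF10A and lower in MCF10AT1 and MCF10CA1h. The MCF10AT1 fall passed (log2 -1.11 ± 0.24 SE, adjusted p = 0.0201, 2.15-fold), and it was lost without control replicate a (-1.02, adjusted p = 0.117) and without knockdown replicate a (-1.06, adjusted p = 0.0772), b (-1.17, adjusted p = 0.0935) or c (-1.09, adjusted p = 0.0536). The differences in MCF10A (log2 0.46 ± 0.16 SE, adjusted p = 0.179) and MCF10CA1h (log2 -0.28 ± 0.12 SE, adjusted p = 0.168) did not pass. PGAP3 and MIEN1 overlap ERBB2 on the opposite strand, and the strand setting of the counting was not given in the sources used here.

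ERBB3 (chr12:56076799-56103505, plus strand) encodes the neuregulin receptor. ERBB3 was at 335, 373 and 283 normalized counts in MCF10A controls, 846, 869.8 and 831 in MCF10AT1 controls and 57.2, 165 and 165 in MCF10CA1h controls, so the 3 lines do not overlap. It rose 2.58-fold in MCF10AT1 against MCF10A (log2 1.37 ± 0.38 SE, adjusted p = 0.0276) and fell 7.26-fold in MCF10CA1h against MCF10AT1 (log2 -2.86 ± 0.38 SE, adjusted p = 0.00109). The first call was lost without MCF10A control b (adjusted p = 0.0702) or c (0.0974), without MCF10AT1 control a (0.0771) or b (0.0583). The second held with each control library left out. MCF10CA1h controls were lower than MCF10A controls (log2 -1.49 ± 0.38 SE, adjusted p = 0.0134), a call lost without MCF10A control b (-1.40, adjusted p = 0.0513).

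In the labelled libraries ERBB3 was at 372, 443 and 354 in MCF10A, 19.6, 4.83 and 18.2 in MCF10AT1 and 123, 169.9 and 84.0 in MCF10CA1h. The MCF10AT1 labelled libraries had almost no ERBB3, below every other library of the series. In that group ERBB3 fell by 6.01 on the log2 scale (0.54 SE, adjusted p = 2.9e-04), the strongest difference of the 10 genes in any line, and the call held with each library left out (-6.33 to -5.42). The differences in MCF10A (log2 0.24 ± 0.19 SE, adjusted p = 0.572) and MCF10CA1h (log2 0.06 ± 0.41 SE, adjusted p = 0.941) did not pass. A second protein-coding gene, ENSG00000257411, overlaps ERBB3 on the same strand, so reads may be split between them and the levels are uncertain. That gene was at 254 to 340 in MCF10A controls, 0 to 201 in MCF10AT1 controls and 0 to 10.8 in the MCF10AT1 labelled libraries.

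AREG, EREG, EPGN and BTC, the genes of amphiregulin, epiregulin, epigen and betacellulin, are the 4 coding genes of a 486.1 kb stretch of chromosome 4. EPGN (chr4:74308470-74316789, plus strand), EREG (chr4:74365145-74388749, plus strand) and AREG (chr4:74445136-74455005, plus strand) follow each other on 1 strand, and BTC (chr4:74744759-74794523, minus strand) lies beyond them on the other. RNA of AREG and EPGN was abundant in these cells, that of EREG varied between groups and that of BTC was low throughout, so the 250 bases before each start are shown (RefSeq, GRCh38.p14, 5′ to 3′ on the gene's strand, from chr4:74308220-74308469, chr4:74364895-74365144, chr4:74444886-74445135 and chr4:74794524-74794773), with matches to the TATA box (TATAAA), the cAMP response element (TGACGTCA) and the AP-1 site (TGANTCA) in capitals.
EPGN: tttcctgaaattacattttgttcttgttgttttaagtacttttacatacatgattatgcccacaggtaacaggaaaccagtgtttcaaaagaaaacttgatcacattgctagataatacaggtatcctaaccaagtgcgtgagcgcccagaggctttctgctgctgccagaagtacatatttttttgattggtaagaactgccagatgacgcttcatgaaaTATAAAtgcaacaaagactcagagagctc
EREG: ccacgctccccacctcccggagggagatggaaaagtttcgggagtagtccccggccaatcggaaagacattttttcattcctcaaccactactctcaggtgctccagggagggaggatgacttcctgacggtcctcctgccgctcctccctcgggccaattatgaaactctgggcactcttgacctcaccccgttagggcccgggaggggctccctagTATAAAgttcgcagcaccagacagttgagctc
AREG: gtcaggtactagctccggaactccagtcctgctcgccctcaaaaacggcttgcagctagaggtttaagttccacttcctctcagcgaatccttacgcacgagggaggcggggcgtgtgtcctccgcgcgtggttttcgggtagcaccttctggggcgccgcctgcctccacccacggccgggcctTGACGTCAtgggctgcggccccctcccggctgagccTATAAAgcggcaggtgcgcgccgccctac
BTC: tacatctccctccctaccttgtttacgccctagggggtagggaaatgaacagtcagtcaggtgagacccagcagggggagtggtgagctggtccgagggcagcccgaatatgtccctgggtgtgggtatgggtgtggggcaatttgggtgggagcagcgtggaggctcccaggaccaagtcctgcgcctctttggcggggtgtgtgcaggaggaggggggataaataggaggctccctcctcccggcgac
EPGN, EREG and AREG each hold TATAAA, with its first base 29, 32 and 29 bases before the start, and BTC has no match. Of 35116 RefSeq promoters of the same length, 10.7% hold this motif on either strand. AREG alone of the 4 holds TGACGTCA, 65 bases before the start, as do 1.65% of all promoters, and none of the 4 holds the AP-1 letters, found in 6.57%. EREG, AREG and BTC hold CACCTG, as do 17.5% of all promoters, and GGGCGG lies in AREG alone, against 42.6%. All motifs were searched on both strands. A match is a description of letters and not evidence of binding.

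Amphiregulin was the most abundant ligand transcript. AREG stood at 18450.0, 15408 and 11321 normalized counts in MCF10A controls, 9089, 10159 and 7345 in MCF10AT1 controls and 12865, 10089 and 10331 in MCF10CA1h controls. The MCF10AT1 values lie below the MCF10A values, and MCF10CA1h overlaps both. AREG was lower in MCF10AT1 than in MCF10A (log2 -0.75 ± 0.23 SE, adjusted p = 0.0363), a call lost without MCF10A control a (-0.59, adjusted p = 0.0862) or b (-0.72, adjusted p = 0.115) and without MCF10AT1 control a (-0.77, adjusted p = 0.0854). Corrected for transcript length, that difference was -1.21 ± 0.17 (SE, adjusted p = 0.00151). Against MCF10A, AREG in MCF10CA1h was log2 -0.42 ± 0.23 SE, adjusted p = 0.165, and it passed with the length correction (-0.71, adjusted p = 0.00852). In the labelled libraries AREG was at 23183, 23566 and 27734 in MCF10A, 5584, 8298 and 17305 in MCF10AT1 and 22467, 17935 and 16321 in MCF10CA1h. The labelled libraries lie above their controls in MCF10A and in MCF10CA1h, and in MCF10AT1 they lie on both sides. In MCF10CA1h AREG rose 1.70-fold (log2 0.76 ± 0.13 SE, adjusted p = 0.00533). The MCF10A difference (log2 0.74 ± 0.20 SE, adjusted p = 0.10) did not pass, though it did without MCF10A control a (0.91, adjusted p = 0.0278), with a correction for transcript length (adjusted p = 0.0450) and with that correction and the replicate block (adjusted p = 0.0276). In MCF10AT1 it was log2 0.08 ± 0.42 SE, adjusted p = 0.926.

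EREG encodes epiregulin, a ligand of EGFR and ERBB4. EREG was at 344, 328 and 244 normalized counts in MCF10A controls, 104, 103 and 420.5 in MCF10AT1 controls and 1169, 1092 and 685 in MCF10CA1h controls. MCF10CA1h lies above both other lines. The rise was 5.75-fold against MCF10AT1 (log2 2.52 ± 0.50 SE, adjusted p = 0.00761), which held with each control library left out, and 3.16-fold against MCF10A (log2 1.66 ± 0.50 SE, adjusted p = 0.0271), which was lost without MCF10A control b (adjusted p = 0.0656) or c (0.0907) and without MCF10CA1h control a (0.0936) or b (0.0811), at log2 values of 1.51 to 1.90. MCF10AT1 against MCF10A did not pass (log2 -0.86 ± 0.50 SE, adjusted p = 0.205) unless MCF10AT1 control c was left out (-1.53, adjusted p = 0.00257). Corrected for transcript length, that difference was -0.48 ± 0.42 (SE, adjusted p = 0.395). With the knockdown label EREG was at 328, 479.6 and 541 in MCF10A, 557, 564 and 2210.2 in MCF10AT1 and 1933, 1401 and 1163 in MCF10CA1h. In MCF10AT1 the labelled libraries lie above the controls, with replicate c highest in both groups. The difference there was log2 2.41 ± 0.71 SE, adjusted p = 0.0601, which did not pass, while with the replicate block it did (adjusted p = 9.2e-05). It passed in 1 of 6 fits with 1 library left out, without MCF10AT1 control c (3.08, adjusted p = 0.0181). Without MCF10AT1 knockdown c it was 1.75 (adjusted p = 0.126), and adjusted p reached 0.197 without MCF10AT1 control a. It also passed without replicate c of both groups (2.42, adjusted p = 0.00440), with the length correction (2.57, adjusted p = 0.0226) and in a joint fit of the 18 libraries (adjusted p = 0.00215). In MCF10A (log2 0.54 ± 0.25 SE, adjusted p = 0.294) and MCF10CA1h (log2 0.62 ± 0.22 SE, adjusted p = 0.103) the groups overlap and neither difference passed.

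EPGN encodes epigen, a low-affinity ligand of EGFR. EPGN was at 1027, 998 and 697 normalized counts in MCF10A controls, 702, 787 and 1673 in MCF10AT1 controls and 1557, 2135 and 1668 in MCF10CA1h controls. MCF10CA1h lies above MCF10A, and MCF10AT1 replicate c reaches into the MCF10CA1h range. EPGN was higher in MCF10CA1h than in MCF10A (log2 0.98 ± 0.33 SE, adjusted p = 0.0400), but the call was lost with any 1 of the 6 libraries left out, at log2 values of 0.81 to 1.08 and adjusted p from 0.0530 to 0.137. Against MCF10AT1 it did not pass (log2 0.86 ± 0.33 SE, adjusted p = 0.0908) unless MCF10AT1 control c was left out (1.25, adjusted p = 0.00369). Under the label EPGN was at 1254, 1405 and 1442 in MCF10A, 231, 402 and 714 in MCF10AT1 and 3284, 3045 and 2989 in MCF10CA1h. The labelled libraries lie above their controls in MCF10A and MCF10CA1h, and in MCF10AT1 the groups overlap. EPGN rose 1.75-fold in MCF10CA1h (log2 0.81 ± 0.12 SE, adjusted p = 0.00262). The difference in MCF10A (log2 0.61 ± 0.19 SE, adjusted p = 0.135) did not pass, and that in MCF10AT1 (log2 -1.26 ± 0.49 SE, adjusted p = 0.139) passed only with the replicate block (adjusted p = 0.00603; 0.00614 with the length correction added) and in a joint fit of the 18 libraries (adjusted p = 0.0100).

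HBEGF (chr5:140332843-140346603, minus strand) encodes heparin-binding EGF-like growth factor, a ligand of EGFR and ERBB4. Control libraries held 8444, 9201 and 10443 normalized counts of HBEGF in MCF10A, 898, 1017 and 1082 in MCF10AT1 and 3002, 1692 and 1433 in MCF10CA1h. No 2 lines overlap, with MCF10A highest and MCF10AT1 lowest. HBEGF was 9.36-fold lower in MCF10AT1 than in MCF10A (log2 -3.23 ± 0.26 SE, adjusted p = 2.4e-04) and 4.81-fold lower in MCF10CA1h (log2 -2.27 ± 0.26 SE, adjusted p = 3.9e-04), and both calls held with each control library left out. The rise from MCF10AT1 to MCF10CA1h (log2 0.96 ± 0.26 SE, adjusted p = 0.0294) was lost without MCF10AT1 control a (0.89, adjusted p = 0.0972) and without MCF10CA1h control a (0.64, adjusted p = 0.0893) or b (1.06, adjusted p = 0.0653). With the knockdown label the values were 7336, 6104 and 4761 in MCF10A, 349.8, 770.4 and 914 in MCF10AT1 and 4712, 3269 and 2328 in MCF10CA1h. The labelled libraries lie below the controls in MCF10A, and the groups overlap in the other lines. No difference passed: log2 -0.64 ± 0.19 SE, adjusted p = 0.119 in MCF10A, log2 -0.67 ± 0.39 SE, adjusted p = 0.309 in MCF10AT1 and log2 0.77 ± 0.29 SE, adjusted p = 0.113 in MCF10CA1h. Without MCF10CA1h control a the last was 1.08 (adjusted p = 0.0299).

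TGFA (chr2:70447284-70554193, minus strand) encodes transforming growth factor alpha, a high-affinity EGFR ligand. TGFA was at 3628, 6199 and 10646 normalized counts in MCF10A controls, 1142, 1196 and 2269 in MCF10AT1 controls and 1396, 1423 and 1392 in MCF10CA1h controls. The MCF10A values spread widely yet lie above both other lines, and the MCF10CA1h values are almost the same in the 3 libraries. TGFA was 4.26-fold lower in MCF10AT1 (log2 -2.09 ± 0.38 SE, adjusted p = 0.00625) and 4.42-fold lower in MCF10CA1h (log2 -2.14 ± 0.38 SE, adjusted p = 0.00280) than in MCF10A, and both calls held with each control library left out. With the knockdown label TGFA was at 2445, 2669 and 3215 in MCF10A, 1168, 1262 and 2456 in MCF10AT1 and 2074, 2017 and 2059 in MCF10CA1h. The labelled libraries lie below their controls in MCF10A and above them in MCF10CA1h. In MCF10AT1 the groups overlap, and replicate c is highest in both. TGFA rose 1.46-fold in MCF10CA1h (log2 0.55 ± 0.09 SE, adjusted p = 0.00347). The MCF10A difference (log2 -1.17 ± 0.35 SE, adjusted p = 0.122) did not pass without pairing and passed with the replicate block (adjusted p = 0.0162; 0.0173 with the length correction added) and without MCF10A control a (-1.56, adjusted p = 0.0109). In MCF10AT1 the difference was log2 0.07 ± 0.40 SE, adjusted p = 0.927.

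NRG1 (chr8:31639222-32855666, plus strand) encodes neuregulin 1, the ligand of ERBB3 and ERBB4. NRG1 was at 119, 232 and 299 normalized counts in MCF10A controls, 35.6, 9.03 and 32.8 in MCF10AT1 controls and 234, 334 and 201 in MCF10CA1h controls. MCF10AT1 lies far below both other lines, which overlap. NRG1 was 8.78-fold lower in MCF10AT1 than in MCF10A (log2 -3.13 ± 0.54 SE, adjusted p = 0.00484) and 10.9-fold higher in MCF10CA1h than in MCF10AT1 (log2 3.44 ± 0.54 SE, adjusted p = 0.00241), and both calls held with each control library left out. Corrected for transcript length, the differences were -2.51 ± 0.40 (SE, adjusted p = 0.00279) and 3.35 ± 0.40 (SE, adjusted p = 4.9e-04). In the control lines the ligand gene NRG1 was thus lowest in the line in which its receptor gene ERBB3 was highest. Under the label NRG1 was at 106, 267 and 146 in MCF10A, 13.7, 21.4 and 23.2 in MCF10AT1 and 626, 596 and 481 in MCF10CA1h. The MCF10CA1h labelled libraries lie above every other library of the series. NRG1 rose 2.25-fold there (log2 1.17 ± 0.20 SE, adjusted p = 0.00414), and the differences in MCF10A (log2 -0.33 ± 0.43 SE, adjusted p = 0.745) and MCF10AT1 (log2 -0.21 ± 0.67 SE, adjusted p = 0.870) did not pass.

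The 4 MCF10CA1h calls, AREG, TGFA, EPGN and NRG1, each held in all 6 fits with 1 library left out. In a joint fit of the 18 libraries, where the wider spread of the other lines enters the error, 0 of the 4 passed (adjusted p = 0.340, 0.701, 0.403 and 0.361 in that order). Of all genes 248 of 15897 passed there, against 12.8% when MCF10CA1h was fitted alone. The basal and mesenchymal marker sums named above move with these 4 genes, and their part in the result was not tested. Counted by ranges alone, labelled and control libraries did not overlap for 5 of the 10 genes in MCF10A (23.9% of all genes tested), 4 of 10 in MCF10AT1 (32.8%) and 5 of 10 in MCF10CA1h (32.7%).

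Whether the effect of the label differs between lines was tested as an interaction in a fit of all 18 libraries. The receptors set MCF10AT1 apart from both other lines. Between MCF10AT1 and MCF10A 4 of 10 genes passed, against 21.6% of all genes: EGFR (-2.89 ± 0.58, adjusted p = 0.00165), ERBB2 (-1.57 ± 0.22, adjusted p = 8.8e-05), ERBB3 (-6.25 ± 0.64, adjusted p = 2.7e-06) and EPGN (-1.87 ± 0.49, adjusted p = 0.0108), each log2 difference of effects with its SE. All 4 held with each library left out. Scaled to equal sums, 1340 of all genes passed as higher and 2044 as lower, against 1773 and 1664. With the replicate block 6 of 10 passed against 28.9% of all genes, since EREG (adjusted p = 8.9e-04) and TGFA (adjusted p = 0.00426) passed as well. EREG also passed without MCF10AT1 control c (2.54, adjusted p = 0.00781), TGFA without that library (1.56, adjusted p = 0.0232) or MCF10A control a (1.63, adjusted p = 0.0155), and AREG without MCF10AT1 knockdown c (-1.11, adjusted p = 0.0177). Corrected for length, EREG (2.05, adjusted p = 0.0250) and TGFA (1.40, adjusted p = 0.0153) passed too.

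Between MCF10CA1h and MCF10AT1 5 of 10 passed, against 18.2% of all genes, the same 4 genes and HBEGF (1.43 ± 0.48, adjusted p = 0.0477). HBEGF kept its call in 3 of 12 fits with 1 library left out, at log2 values of 1.01 to 1.75, and lost it without MCF10AT1 control a, b or c, MCF10AT1 knockdown a or b, MCF10CA1h control b or c, or MCF10CA1h knockdown a or b. ERBB2 lost its call without MCF10CA1h control b (0.74, adjusted p = 0.0510). AREG passed without MCF10AT1 knockdown c (1.13, adjusted p = 0.0189), EREG without MCF10AT1 control c (-2.47, adjusted p = 0.0109) and NRG1 without MCF10AT1 control b (1.98, adjusted p = 0.0164). Corrected for length, EREG passed (-1.95, adjusted p = 0.0369) and ERBB2 did not (0.67, adjusted p = 0.0872). Both comparisons contain the MCF10AT1 libraries. Between MCF10CA1h and MCF10A limma called 0 of 10, against 5.34% of all genes, and 4 had an unadjusted p under 0.05. The nearest was TGFA (1.72 ± 0.49, adjusted p = 0.0505), which passed without MCF10A control a (2.10, adjusted p = 0.00921), with the length correction (1.73, adjusted p = 0.0135) and with a pseudocount of 5 (adjusted p = 0.0463). With the replicate block, in which the MCF10CA1h letters do not pair, TGFA (adjusted p = 0.00216) and HBEGF (1.41, adjusted p = 0.0180) passed. The AREG effects of these lines differed by 0.02 ± 0.43 (SE).

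Genes around the receptors were counted by list, to be read against the share of all genes that passed: 2.65%, 13.0% and 12.8% under the label in MCF10A, MCF10AT1 and MCF10CA1h, and 28.1%, 37.8% and 21.8% for MCF10AT1 and MCF10CA1h against MCF10A controls and for MCF10CA1h against MCF10AT1 controls. The list of 12 shedding genes holds the ADAM proteases that release ligands, their rhomboid partners and the inhibitor TIMP3. In MCF10A with the label 0 of 12 passed by limma (3 at an unadjusted p under 0.05). In MCF10AT1 2 of 12 passed (13.0% of all genes), ADAM8 lower (log2 -3.25 ± 0.45, adjusted p = 0.00247) and FRMD8, a stabilizer of the iRhom and ADAM17 complex, higher (1.60 ± 0.31, adjusted p = 0.0109). In MCF10CA1h 3 of 12 passed (12.8% of all genes), all higher: ADAM19 (0.99 ± 0.23, adjusted p = 0.0205), RHBDF1, which encodes an iRhom (0.90 ± 0.17, adjusted p = 0.00802), and TIMP3 (0.53 ± 0.09, adjusted p = 0.00347). Between control lines 6 of 12 passed from MCF10A to MCF10AT1 (28.1% of all genes), 5 of them lower, with TIMP3 at -3.46 ± 0.36, adjusted p = 5.9e-04. From MCF10A to MCF10CA1h 4 of 12 passed, no larger a share than the 37.8% of all genes, all lower, with ADAM8 at -2.69 ± 0.43, adjusted p = 0.00171, and from MCF10AT1 to MCF10CA1h 3 higher and 1 lower. The list's median log2 difference under the label was -0.27, 0.53 and 0.24 in the 3 lines.

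Of 18 adaptor genes, which link active receptors to RAS and PI3K, 1 passed in MCF10A with the label, VAV3 (log2 1.72 ± 0.30, adjusted p = 0.0276). In MCF10AT1 2 passed, NCK2 lower (-2.18 ± 0.40, adjusted p = 0.00893) and SHC1 higher (2.07 ± 0.49, adjusted p = 0.0279). In MCF10CA1h 3 passed, GAB2 (0.89 ± 0.26, adjusted p = 0.0486) and SHC1 (0.38 ± 0.10, adjusted p = 0.0330) higher and VAV2 lower (-0.39 ± 0.10, adjusted p = 0.0243). Between MCF10AT1 and MCF10A controls 9 of 18 passed (28.1% of all genes), all lower, among them PIK3R1, the regulatory subunit of PI3K (-2.19 ± 0.55, adjusted p = 0.0195), and RASA1, a RAS GTPase-activating protein (-2.18 ± 0.47, adjusted p = 0.0119). With values corrected for transcript length 8 of the 18 passed, 7 lower and 1 higher (4690 of all 15652 genes). With equal sums 5 passed, all lower (3708 of all 15733 genes). Against MCF10A, MCF10CA1h had 0 higher and 5 lower, and against MCF10AT1 2 higher and 0 lower. Under the label the list's median was -0.12, -0.70 and 0.01 in the 3 lines.

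Receptor attenuation genes, 19 in all, encode ubiquitin ligases, sorting proteins and inhibitors that end signalling. With the label 0 passed in MCF10A by limma (5 at an unadjusted p under 0.05). In MCF10AT1 2 passed, both lower: CBLC, an epithelial ubiquitin ligase of the CBL family (log2 -7.33 ± 0.42, adjusted p = 4.1e-05), and LRIG3 (-1.46 ± 0.39, adjusted p = 0.0440). In MCF10CA1h LRIG1, which promotes receptor degradation, fell (-1.01 ± 0.23, adjusted p = 0.0171) and SH3KBP1, a CBL partner, rose (0.52 ± 0.09, adjusted p = 0.00456). Between control lines 6 of 19 were lower in MCF10AT1 than in MCF10A, near the 28.1% of all genes that passed, and 9 of 19 in MCF10CA1h (37.8% of all genes), with none higher in either, and CBLC was at -2.30 ± 0.28, adjusted p = 4.8e-04 in the second. Medians under the label were -0.28, -0.16 and -0.02 in the 3 lines.

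ERK output genes, 18 in all, are transcripts known to follow ERK activity, many of them feedback inhibitors. With the label 4 passed in MCF10A: SPRY1 rose (log2 1.41 ± 0.26, adjusted p = 0.0358), and PLAUR (-1.29 ± 0.19, adjusted p = 0.0172), DUSP5 (-1.25 ± 0.22, adjusted p = 0.0279) and HMGA1 fell. In MCF10AT1 7 of 18 passed (13.0% of all genes), 5 higher and 2 lower, with the feedback inhibitors SPRED3 (2.94 ± 0.34, adjusted p = 9.7e-04) and SPRY4 (2.73 ± 0.54, adjusted p = 0.0127) higher and the immediate early gene FOS (-2.55 ± 0.54, adjusted p = 0.0174) lower. In MCF10CA1h 4 of 18 passed (12.8% of all genes), with SPRED3 (2.03 ± 0.29, adjusted p = 0.00180) and PLAUR (0.58 ± 0.13, adjusted p = 0.0144) higher and SPRY1 (-0.93 ± 0.18, adjusted p = 0.00892) and ETV4 lower. Members thus moved in opposite directions in each line, with list medians of -0.16, 0.67 and 0.08. Between control lines 5 of 18 were lower in MCF10AT1 than in MCF10A, near the 28.1% of all genes, with PHLDA1 at -1.92 ± 0.22, adjusted p = 9.1e-04, and in MCF10CA1h 8 were lower and 2 higher (37.8% of all genes), with SPRY1 at 1.51 ± 0.40, adjusted p = 0.0160. SPRY1 and PLAUR differed in their label effect between MCF10CA1h and MCF10A, by -2.34 ± 0.46, adjusted p = 0.00611 and 1.88 ± 0.29, adjusted p = 9.7e-04.

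Several of these counts moved by more than 1.5 times under other fits. With the replicate block under the label, 2 adaptor and 2 attenuation genes passed in MCF10A (7.60% of all genes). In MCF10AT1 4 shedding, 4 adaptor and 5 attenuation genes passed with it (24.5% of all genes). In the joint fit of the 18 libraries 5 shedding, 6 adaptor and 6 attenuation genes passed in MCF10AT1, where 5146 of all 15897 genes passed. In MCF10CA1h, where 248 of 15897 genes passed, none of these 3 lists held a call and 1 ERK output gene passed. With equal sums 1 gene of each of the first 3 lists passed in MCF10AT1 under the label (1912 of all 15825 genes). Between MCF10AT1 and MCF10A controls 3 attenuation genes passed with equal sums (3708 of all 15733 genes). Corrected for length, 9 adaptor genes passed between MCF10CA1h and MCF10A controls (6608 of all 15652 genes). Between MCF10CA1h and MCF10AT1 controls 6 adaptor and 7 ERK output genes passed with that correction (4436 of all 15652 genes).

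The genes whose log2 values followed each variable member most closely over the 18 libraries are given as a description, since the libraries share lines, letters and the transcript-length measure. EGFR was nearest to OSBPL9, DSP (desmoplakin, a desmosome protein) and FAM83B, with Pearson r of 0.982, 0.981 and 0.980. ERBB3 was nearest to LINC02967, NECTIN4 and EPPK1 (0.957, 0.949 and 0.944), and HBEGF to DUSP7, GABRA2 and TNS4 (0.959, 0.949 and 0.948). For NRG1 they were PTHLH, DPP9 and CORO1C (0.980, 0.962 and 0.959), for EPGN VDR, AADAT and CRCP (0.943, 0.921 and 0.919), and for EREG SPOP, FZD7 and GALNT2 (0.904, 0.897 and 0.881).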

How the data were processed

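Per the labels and the methods, the authors prepared stranded libraries with ribosomal RNA depletion (polyA RNA according to the labels and a heading, which was not resolved), ran paired-end sequencing, quantified transcripts of hg38 with kallisto 0.46.1 and normalized gene counts with DESeq2 1.26.0 in R 4.1.1. The annotation release is not given in the sources used here. Normalized counts are what the authors deposited, a signal rather than whole reads: between 14.9% and 37.1% of the values under 20 of a library lay within 0.02 of a whole multiple of its most frequent low value. The depth behind a gene is therefore unknown, and no count model was used. The table lists 35933 genes with values for all 18 libraries, and 24646 rows without values were left out.

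Values were tested as log2(normalized count + 1) with limma 3.58.1 (lmFit, eBayes with an intensity trend) in R 4.3.3, leaving out genes whose mean across the fitted libraries was below 10, with two-sided p adjusted by Benjamini-Hochberg over all genes tested and a threshold of 0.05. All 10 genes passed the filter in every fit. Each line's 6 libraries were fitted alone, interactions in 1 fit of 18 libraries, and control lines in a fit of 9. The length correction subtracts, per library, a lowess curve (span 0.3) of deviation against transcript length. Other steps used Python 3.11.15, pandas 2.3.3, NumPy 2.4.6 and SciPy 1.17.1. The fits were tested on simulated data.

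Groups and letters came from the labels. Same-letter deviations correlated at 0.221, 0.200 and 0.116 in MCF10A and at 0.110, 0.289 and 0.477 in MCF10AT1. Other-letter values were -0.170 to 0.009 in MCF10A and -0.413 to 0.251 in MCF10AT1, the last for control b with knockdown a. Control libraries of different lines and letters correlated at up to 0.355, so these values do not establish pairs. The letters were taken as pairing in these 2 lines as an assumption. Blocked values stand beside the calls they change in these lines and in the differences between lines. Alternatives were pseudocounts of 0.5 and 5, other filters, no trend, equal sums, a joint fit, the block and each library left out; the length corrections and the removal of replicate c of both MCF10AT1 groups were chosen after seeing the data. The members and gene lists were chosen with earlier results of these data known. Named were all members, METTL3, at most the 3 called genes of a list with the strongest change per comparison (HMGA1 and ETV4, outside this rule, complete a count), markers by list, and the 3 nearest genes of members with an SD of at least 1. Gene coordinates and canonical lengths are from GENCODE v44 on hg38, promoters from RefSeq; ERBB3 and NRG1 promoters were not used here.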

Additional observations from a re-analysis of the deposited data

Results flagged for a closer look

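Each of these results is a difference of the label effect between 2 lines that passed the interaction test in the fit of 18 libraries (limma, 3 libraries per group, log2 difference of effects with its SE). For MCF10AT1 minus MCF10A they were ERBB3 at -6.25 ± 0.64 (adjusted p = 2.7e-06), ERBB2 at -1.57 ± 0.22 (adjusted p = 8.8e-05), EGFR at -2.89 ± 0.58 (adjusted p = 0.00165) and EPGN at -1.87 ± 0.49 (adjusted p = 0.0108). For MCF10CA1h minus MCF10AT1 they were ERBB3 at 6.06 ± 0.64 (adjusted p = 3.6e-06), EGFR at 2.92 ± 0.58 (adjusted p = 0.00180), EPGN at 2.07 ± 0.49 (adjusted p = 0.00666), HBEGF at 1.43 ± 0.48 (adjusted p = 0.0477) and ERBB2 at 0.82 ± 0.22 (adjusted p = 0.0166). With the length correction the last was 0.67 (adjusted p = 0.0872). Both sets contain the MCF10AT1 libraries.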

How the results depend on the processing

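Of 1568 combinations of a gene, a comparison and an alternative, 1390 kept their direction and their side of the threshold, 61 lost a call, 44 gained one and 73 changed direction. The number of genes called in MCF10A with the label was 0 of 10, and 1 with the replicate block, 1 with the length correction and 2 with both. Of all 15416 genes tested 409 passed, and 1172, 507 and 1277 under these settings in that order. In MCF10AT1 the number of the 10 was 3, and 5 with the block, with the joint fit or with the block and length correction. All genes tested gave 2091 of 16050, and 3939 of 16050, 5146 of 15897 and 3865 of 16050 in that order. In MCF10CA1h the number of the 10 was 4 (1929 of all 15127 genes), and 0 in the joint fit (248 of all 15897 genes). The MCF10CA1h minus MCF10A count of 0 became 1 with a pseudocount of 5, 2 with the block and 1 with the length correction. Of all 15897 genes 849 passed, and 943, 1283 and 1113 under these settings in that order. MCF10CA1h against MCF10A controls went from 5 (5920 of all 15652 genes) to 3 with equal sums (5565 of all 15733 genes). With 1 library left out the counts ranged from 0 to 2 in MCF10A, 1 to 4 in MCF10AT1 and 4 to 5 in MCF10CA1h. In these fits 52 of 15426 to 1418 of 15419 of all genes passed in MCF10A. In MCF10AT1 1020 of 16062 to 2439 of 16076 passed, and in MCF10CA1h 1089 to 1785 of 15128. The counts of the 10 genes ranged from 4 to 6 for MCF10AT1 minus MCF10A (2791 of 15853 to 5077 of 15872 of all genes). For MCF10CA1h minus MCF10A they were 0 to 1 (470 of 15896 to 1092 of 15905). For MCF10CA1h minus MCF10AT1 they were 3 to 6 (2139 of 15912 to 4206 of 15872). MCF10AT1 against MCF10A controls gave 4 to 8 (1661 of 15640 to 8142 of 15613), with 8 reached without MCF10AT1 control c. MCF10CA1h controls gave 2 to 4 against MCF10A (3675 of 15683 to 5714 of 15640). Against MCF10AT1 they gave 4 to 6 (1608 of 15694 to 5593 of 15613).

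Letters did not pair the MCF10CA1h libraries (same-letter correlations of -0.011, 0.017 and 0.046). With the replicate block there EREG (adjusted p = 0.0137) and HBEGF (adjusted p = 0.00245) passed as well, as did EREG for MCF10CA1h minus MCF10AT1 (adjusted p = 0.00135). The block, where the letters were taken as pairs, changed no calls of the label comparisons in MCF10A and MCF10AT1 other than those given above.

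Equal sums moved the median of all genes to -0.15 in MCF10AT1 with the label, from 0.02, to -0.26 for MCF10AT1 minus MCF10A, from -0.00, to -0.17 for MCF10CA1h minus MCF10A, from -0.03, and to -0.15 for MCF10AT1 against MCF10A controls, from -0.01. Under it these differences changed direction, none of them called: in MCF10AT1 with the label AREG (-0.0824), TGFA (-0.0879) and BTC (-0.0659); NRG1 for MCF10AT1 minus MCF10A (-0.13); EGFR (-0.12), AREG (-0.13) and EREG (-0.0734) for MCF10CA1h minus MCF10A; EPGN (-0.0123) and BTC (-0.0728) for MCF10AT1 against MCF10A controls; and TGFA (0.0596) for MCF10CA1h against MCF10AT1 controls. With the length correction AREG (-0.21) and NRG1 (0.0448) in MCF10AT1 with the label, AREG (-0.0418) for MCF10CA1h minus MCF10A, ERBB2 (0.20) for MCF10CA1h against MCF10A controls and EGFR (-0.0142) for MCF10CA1h against MCF10AT1 controls did so. Calls of single genes that ended under such settings, beside those given above, were AREG in MCF10CA1h with the label without the intensity trend (adjusted p = 0.0510), AREG in MCF10AT1 against MCF10A controls without the filter, without the trend or in the joint fit (0.0697, 0.0592 and 0.0619), with equal sums ERBB3 in MCF10AT1 (0.0549) and EREG in MCF10CA1h (0.0627) against MCF10A controls, and HBEGF for MCF10CA1h minus MCF10AT1 without the filter, without the trend or with equal sums (0.0721, 0.0685 and 0.0501). The cause was not tested.

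With 1 library left out the differences that changed direction, none of them called with all libraries, ranged as follows. For MCF10A with the label they were BTC -0.77 to 0.0457. For MCF10AT1 with the label they were AREG -0.50 to 0.45, TGFA -0.26 to 0.39, BTC -0.40 to 0.62 and NRG1 -0.82 to 0.12. The -0.50 of AREG came from leaving out replicate c of both MCF10AT1 groups, not 1 library. For MCF10CA1h with the label they were ERBB3 -0.45 to 0.32. For MCF10AT1 minus MCF10A they were HBEGF -0.30 to 0.40, BTC -0.0668 to 0.95 and NRG1 -0.49 to 0.50. For MCF10CA1h minus MCF10A they were EGFR -0.13 to 0.29, ERBB3 -0.69 to 0.0781, AREG -0.14 to 0.21 and EREG -0.17 to 0.24. For MCF10CA1h minus MCF10AT1 they were BTC -0.25 to 0.76. For MCF10AT1 against MCF10A controls they were EPGN -0.27 to 0.36 and BTC -0.20 to 0.38. For MCF10CA1h against MCF10A controls they were ERBB2 -0.19 to 0.0128 and NRG1 -0.0736 to 0.59. For MCF10CA1h against MCF10AT1 controls they were EGFR -0.37 to 0.59 and TGFA -0.23 to 0.26. Depth per gene could not be weighed because the values are not reads.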
